A study of Mus musculus with 12 samples.

Results

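The metabotropic glutamate receptor genes described here are Grm2, Grm3, Grm4, Grm5, Grm7, and Grm8. They were taken by gene symbol, and they were 6 of the 55418 genes in the count table. All 6 passed the filter on low counts in every comparison. Grm6, a further gene of the family, is given as background.

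Brainstem (medulla and pons) RNA from 12 outbred CFW mice was sequenced at P15 after poly-A selection, with 1 library per mouse. The 6 morphine mice had been injected subcutaneously with 15 mg/kg morphine sulfate 2 times per day from P1 through P14 and were killed 16 h after the last injection, in spontaneous withdrawal, and the 6 saline mice had been injected with saline on that schedule. The 4 groups were saline females (replicates 4, 5, and 6), saline males (replicates 1, 2, and 3), morphine females (replicates 1, 2, and 3), and morphine males (replicates 4, 5, and 6). Pups of both treatments were raised in mixed litters, and no label gives the dam of a mouse. The morphine was given directly to the pups after birth and the tissue was a whole brainstem, so fewer cells that express a gene and less of its RNA per cell cannot be told apart.

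Libraries held 27850565 to 48097947 counts. Glycinergic neurons of the hindbrain and spinal cord were marked by Slc6a5 at 479 to 638 CPM (counts scaled to the size of the library), and the hindbrain and cervical genes Hoxa5 and Hoxb5 were at 23.9 to 44.0 CPM. Text on the RNA extraction in the labels names spinal cords, whereas the tissue label gives brainstem. Of 8 Hox genes listed for spinal cord levels, 1 had a mean over 1 CPM across the 12 libraries. This was Hoxd8, at 0.745 to 7.51 CPM, with 6.82, 7.51, and 2.27 CPM in saline females and 0.745, 2.10, and 2.76 CPM in saline males. The thoracic and lumbar genes Hoxc9 and Hoxc10 were each at 0 in 11 of the 12 libraries. The 5 forebrain markers summed to 8.0 to 14.2 CPM. Among them Emx1 reached at most 0.153 CPM, whereas Neurod6 was at 13.2 CPM in saline male 3. Xist, which is transcribed from the inactive X chromosome, was at 380 CPM in the library labelled morphine male 6, against 0.398 to 2.71 CPM in the other 5 male libraries and 547 to 971 CPM in the females. The Y-linked gene Ddx3y was at 12.8 CPM in that library and at 118 to 199 CPM in the other males, so its content goes against its label, and the calls of members, the correlations over all mice, and the counts of list genes called in males are also given without it.

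Metabotropic glutamate receptors are G protein-coupled receptors that respond to synaptic glutamate over slower times than the ionotropic channels. Group I receptors couple to Gq and phospholipase C and are mainly postsynaptic, whereas group II and group III receptors couple to Gi/o, lower cAMP, and mostly act on axon terminals to reduce transmitter release. Grm5 belongs to group I, Grm2 and Grm3 to group II, and Grm4, Grm7, and Grm8 to group III. Receptors of groups II and III have long been studied in opioid dependence and withdrawal, because they can restrain the glutamate release that increases when opioid exposure ends.

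In GENCODE M21 on GRCm38, Grm5 lies at chr7:87584168-88134907 on the plus strand and Grm7 at chr6:110645581-111567230 on the plus strand. The other members lie on minus strands, Grm2 at chr9:106643095-106656082, Grm3 at chr5:9485541-9725170, Grm4 at chr17:27422387-27521403, and Grm8 at chr6:27275119-28135178. All are protein coding genes, and their counts are reads over exons. The GC content of the longest transcript divided the members, with Grm4 (61.7%) and Grm2 (56.9%) at the 98.2 and 87.9 percentiles of the genes tested, Grm3 (47.6%) and Grm7 (47.2%) at the 41.5 and 39.7 percentiles, and Grm5 (42.5%) and Grm8 (41.9%) at the 16.5 and 14 percentiles. An annotated antisense gene, Gm20387, overlaps the 5′ end of Grm7 and held 1063 counts over the 12 libraries, against 17466 for Grm7. Whether counting used strand is not stated in the sources used here, so reads of this pair over shared exons cannot be told apart.

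Promoter windows, from 250 bases before to 50 after an annotated start, were found in RefSeq (GRCm38.p6) for 4 members, Grm2, Grm3, Grm7, and Grm8. The windows of Grm2, Grm7, and Grm3 are printed because these 3 genes stand for the 3 patterns across mice described below, in which Grm2 and Grm7 ran against each other and Grm3 followed neither. Grm2 is at chr9:106656060-106656359 (minus strand), Grm7 at chr6:110645348-110645647 (plus strand), and Grm3 at chr5:9725303-9725602 (minus strand). Each is written 5′ to 3′ on the strand of its gene, with capitals for the GC box GGGCGG, searched on both strands.
Grm2: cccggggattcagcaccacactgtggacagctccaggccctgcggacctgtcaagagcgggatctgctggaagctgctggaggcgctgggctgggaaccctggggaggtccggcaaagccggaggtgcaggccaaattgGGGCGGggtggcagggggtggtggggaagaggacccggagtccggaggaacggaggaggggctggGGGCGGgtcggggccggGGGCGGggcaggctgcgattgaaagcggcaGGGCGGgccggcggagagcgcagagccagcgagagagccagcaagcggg
Grm7: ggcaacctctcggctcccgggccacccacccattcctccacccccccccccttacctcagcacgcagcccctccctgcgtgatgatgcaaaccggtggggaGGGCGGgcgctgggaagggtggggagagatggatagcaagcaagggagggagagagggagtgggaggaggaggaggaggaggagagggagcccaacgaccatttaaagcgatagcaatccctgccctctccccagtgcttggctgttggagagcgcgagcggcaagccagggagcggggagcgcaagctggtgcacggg
Grm3: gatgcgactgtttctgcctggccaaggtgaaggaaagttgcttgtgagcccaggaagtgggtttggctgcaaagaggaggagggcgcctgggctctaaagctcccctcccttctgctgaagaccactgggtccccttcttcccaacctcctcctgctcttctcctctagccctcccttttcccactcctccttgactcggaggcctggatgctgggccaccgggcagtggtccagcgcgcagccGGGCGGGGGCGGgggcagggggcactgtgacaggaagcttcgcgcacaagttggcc

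The Grm2 window held 4 GC boxes, the Grm3 window 2, and the Grm7 window 1. This motif was found in 35.7% of the 32851 promoter windows in the table. GC content was 72.0% in the Grm2 window, 66.7% in that of Grm7, and 63.7% in that of Grm3, above the median of 52.7% over all windows in each case. The cAMP response element half-site TGACG, also searched on both strands, was in none of the 3 windows and in 20.8% of all windows. The table lists 2 starts for Grm7, of which the downstream is printed, and the other also held 1 GC box. Among the 3 starts listed for Grm8, the most upstream window (67.0% GC) held 1 GC box, the middle window (54.0% GC) held 1 TGACG, and the most downstream (43.3% GC) held neither motif.

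Grm5 had the highest level of the members in saline mice, and Grm2 had the lowest. Per kb of exon, mean levels in the 6 saline mice were 12.2 CPM per kb for Grm5, 7.38 for Grm7, 5.07 for Grm3, 3.12 for Grm4, 2.18 for Grm8, and 0.715 for Grm2. Grm5 lay above Grm7 in 6 of 6 saline mice (mean log2 difference 0.72 ± 0.16, SD, n = 6, two-sided exact sign-flip permutation test p = 0.0312, the smallest p that 6 mice allow). Grm7 lay above Grm3, and Grm8 above Grm2, in 6 of 6 mice, each with the same exact permutation p of 0.0312. The neighbours Grm3 and Grm4 were not separated beyond their spread (log2 difference 0.89 ± 0.74, SD, n = 6, exact permutation p = 0.0938), nor were Grm4 and Grm8 (0.34 ± 0.95, SD, n = 6, exact permutation p = 0.406). The order of Grm3, Grm4, and Grm8 depended on the length used, since per kb of the longest coding sequence Grm8 came above Grm4 and Grm3. Grm6, known as the receptor of retinal bipolar cells, had 0 to 3 counts per library and was not tested.

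**Figure D1:**
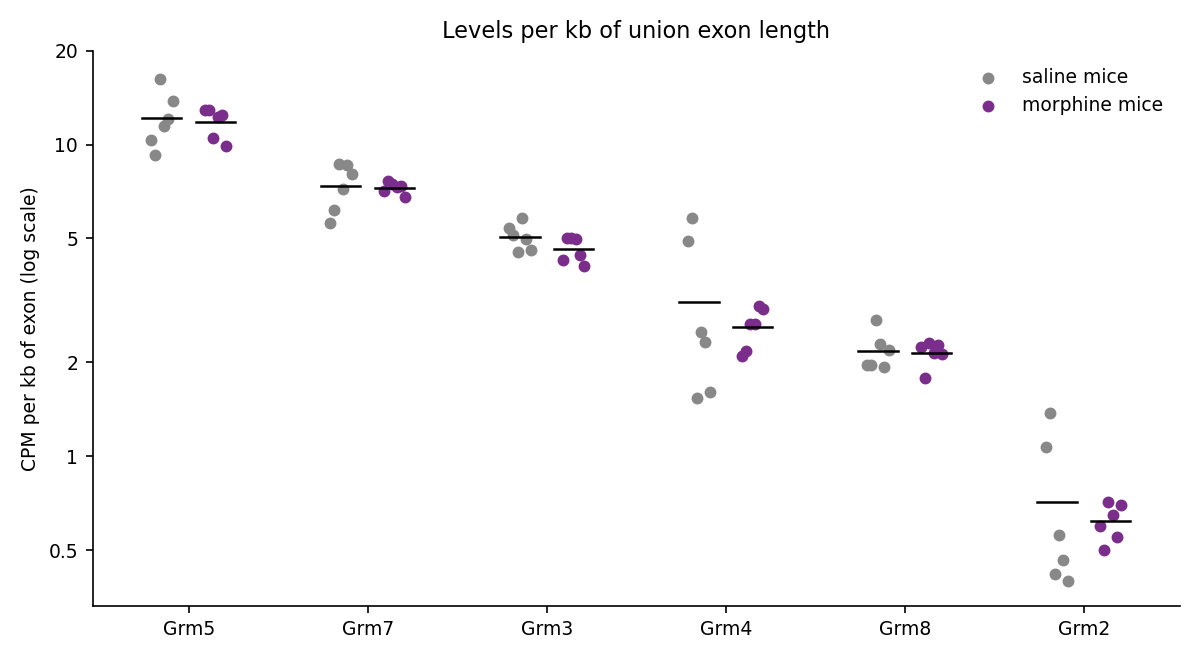
Levels of the 6 genes in CPM per kb of exon on a log axis, with 1 point per mouse, saline mice in gray and morphine mice in purple, and a line at each mean. The saline means fall from 12.2 for Grm5 to 0.715 for Grm2, and the spread within the saline mice is widest for Grm4 and Grm2.

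Levels of the single mice are given next as CPM after TMM normalization, in the order of the replicate numbers. Grm5, the group I receptor that is anchored by Homer and Shank proteins at excitatory synapses, was at 117, 124, and 141 CPM in saline females and at 132, 132, and 107 CPM in morphine females. In males it was at 106, 95.1, and 166 CPM after saline and at 126, 128, and 102 CPM after morphine. The highest and the lowest of the 12 values were both from saline males, and the treatments overlapped in each sex.

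Grm2, a presynaptic group II autoreceptor, was at 2.74, 2.28, and 1.95 CPM in saline females and at 2.92, 2.45, and 3.49 CPM in morphine females. Saline males had 5.25, 6.72, and 2.05 CPM and morphine males had 3.18, 2.69, and 3.42 CPM. Saline males 1 and 2 therefore lay above every other mouse, whereas saline male 3 lay among the saline females. These levels rest on 67 to 307 counts per library, the fewest of any member. Grm3, the group II receptor found in astrocytes as well as in neurons, varied least, with 17.7, 15.2, and 13.98 CPM in saline females, 13.0, 15.2, and 15.3 CPM in morphine females, 16.4, 15.6, and 13.8 CPM in saline males, and 15.2, 13.4, and 12.4 CPM in morphine males. Its coefficient of variation over the 12 mice was 10.2%, against 42.8% for Grm2.

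Grm4, the group III receptor known for its high level in cerebellar granule cells, was at 14.95, 13.95, and 9.6 CPM in saline females and at 12.6, 13.1, and 15.9 CPM in morphine females. In males it was at 29.4, 34.7, and 9.19 CPM after saline and at 15.9, 18.2, and 17.7 CPM after morphine. As for Grm2, the 2 highest mice were saline males 1 and 2, and here saline male 3 was the lowest of all 12. Grm7, a presynaptic receptor of low glutamate affinity that sits in the active zone, was at 42.5, 50.6, and 47.3 CPM in saline females, 41.9, 44.9, and 43.9 CPM in morphine females, 32.9, 36.3, and 51.1 CPM in saline males, and 43.1, 43.2, and 40.1 CPM in morphine males. Here saline males 1 and 2 were the 2 lowest mice and saline male 3 was the highest. Grm8, a presynaptic group III receptor of high glutamate affinity, was at 22.7, 19.1, and 21.7 CPM in saline females, 22.2, 17.7, and 22.9 CPM in morphine females, 19.4, 19.4, and 27.05 CPM in saline males, and 21.3, 22.6, and 21.0 CPM in morphine males. Saline male 3 again held the highest value, and no treatment groups were apart.

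**Figure D2:**
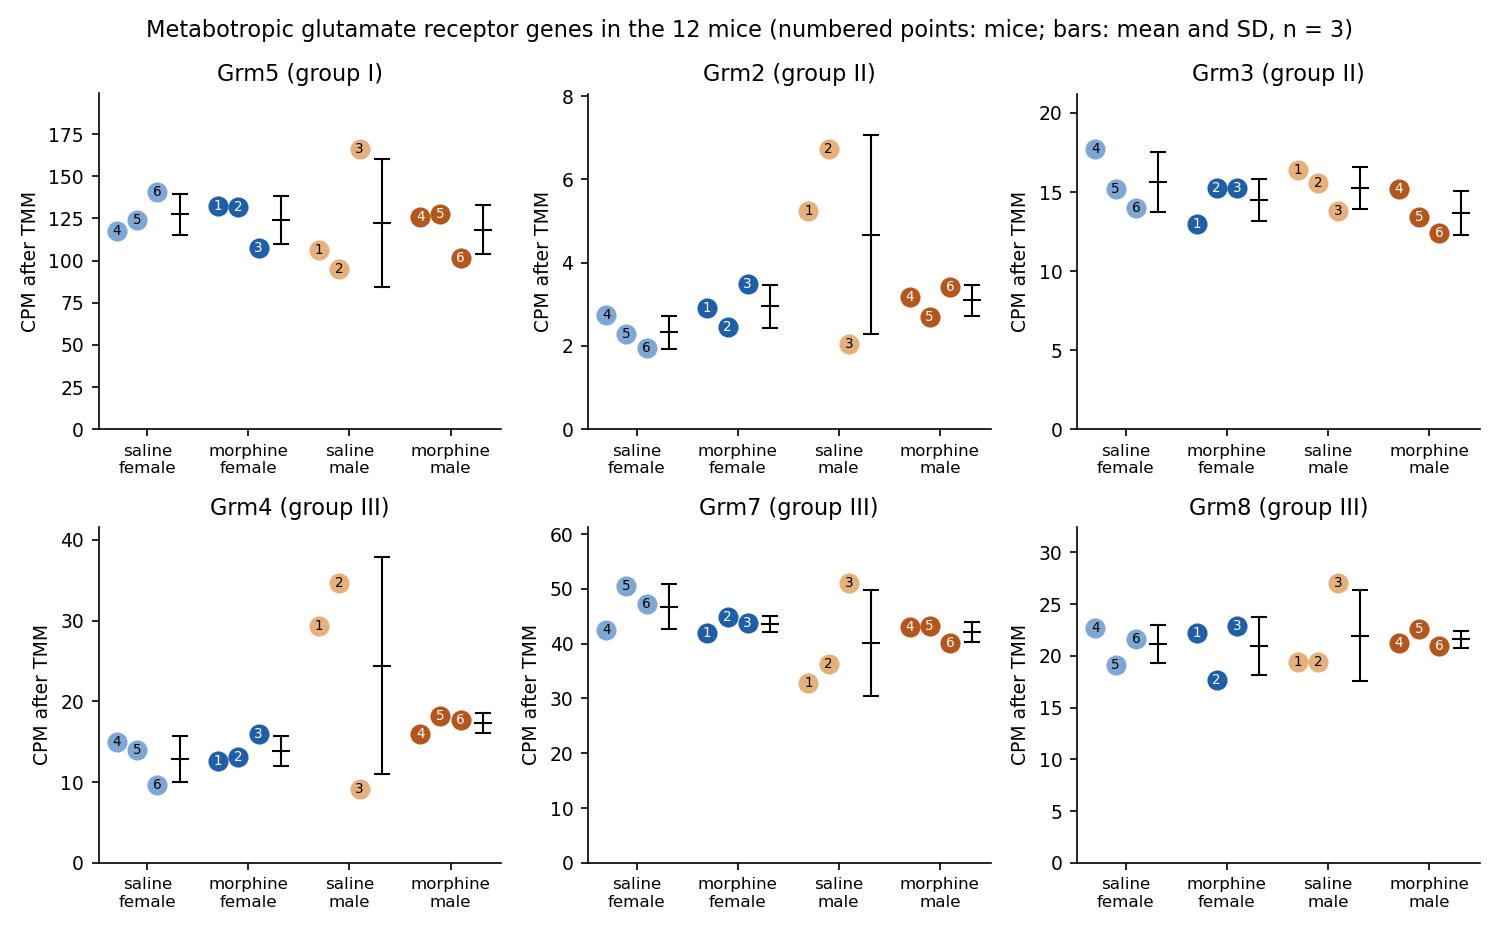
CPM after TMM normalization of each gene in the 4 groups, with 1 numbered point per mouse (the number is the replicate) and the mean and SD of each group (n = 3). Saline males 1 and 2 stand above all other mice for Grm2 and Grm4 and below them for Grm7, while saline male 3 lies at or near the opposite end.

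In saline males the SD of Grm4 was 13.4 CPM around a mean of 24.4 CPM (n = 3), and in morphine males it was 1.22 CPM around 17.3 CPM (n = 3). Grm2 showed the same contrast, with 4.67 ± 2.39 CPM (SD, n = 3) in saline males and 3.1 ± 0.38 CPM (SD, n = 3) in morphine males. Without the library labelled morphine male 6, the morphine male values were 17.05 ± 1.62 CPM for Grm4 and 2.93 ± 0.35 CPM for Grm2 (SD, n = 2). For Grm5, Grm2, Grm4, Grm7, and Grm8, all 3 morphine males lay within the range of the 3 saline males.

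The sex-combined comparison asked whether the members differed between the 6 morphine and the 6 saline mice with sex as a covariate. No member passed the thresholds. DE genes were those at an unadjusted p under 0.05 whose log2 fold change exceeded 0.26 in either direction, the thresholds of the study. By these, 1.19% of the 18608 genes tested were DE and 0 of the 6 members were, and 0 members passed by exactTest or DESeq2 or at an unadjusted p under 0.05 alone. Log2 fold changes with their SE were −0.04 ± 0.13 for Grm5, −0.12 ± 0.27 for Grm2, −0.12 ± 0.10 for Grm3, −0.18 ± 0.26 for Grm4, −0.01 ± 0.11 for Grm7, and −0.01 ± 0.11 for Grm8. Their median was −0.08, beside −0.02 over all genes tested, and the adjusted p of each member was 0.9999 (edgeR quasi-likelihood test, Benjamini-Hochberg). Treatments did not overlap in 0.043% of genes and in 0 of the 6 members. Without the library labelled morphine male 6, Grm2 was at −0.1 ± 0.30 and Grm4 at −0.16 ± 0.28, and 0 members passed.

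In females, 0 of the 6 members passed the thresholds, beside 1.81% of the 18109 genes tested. Grm2 had the largest value among the members, at a log2 fold change of 0.34 ± 0.23 (SE, unadjusted p = 0.165, adjusted p = 0.9998, edgeR quasi-likelihood test). Fold changes of the other members ran from −0.11 (Grm3 and Grm7) to 0.11 (Grm4), with SEs from 0.10 to 0.17. Morphine and saline females did not overlap in 5.65% of genes and in 0 members. The median of the members was −0.04, beside −0.01 over all genes.

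In males, 0 of the 6 members passed, beside 2.99% of the 18166 genes tested, and the treatments did not overlap in 9.1% of genes and in 0 members. Grm2 stood at −0.6 ± 0.41 (SE, unadjusted p = 0.186) and Grm4 at −0.5 ± 0.43 (SE, unadjusted p = 0.287), both with an adjusted p of 0.9999 (edgeR quasi-likelihood test). Grm3 was at −0.17 ± 0.16, Grm5 at −0.06 ± 0.24, Grm8 at −0.03 ± 0.19, and Grm7 at 0.06 ± 0.20. The median of the members was −0.12, beside −0.06 over all genes. Without the library labelled morphine male 6, the values were −0.68 ± 0.50 for Grm2 and −0.53 ± 0.53 for Grm4, with 0 members past the thresholds.

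The male values depended on single saline males. When saline male 3 was left out, Grm2 was lower in morphine males by −0.91 ± 0.20 (SE) on the log2 scale (adjusted p = 0.0256, edgeR quasi-likelihood test) and Grm4 by −0.86 ± 0.12 (adjusted p = 0.0108), while Grm7 was higher by 0.32 ± 0.10 (unadjusted p = 0.0126, adjusted p = 0.0771). In that fit, however, 28.6% of all genes passed the thresholds and 11.5% had an adjusted p under 0.05, so 3 of 6 and 2 of 6 members stood in a background in which a large share of genes passed. The fits without any other male called 0 members, with Grm2 from −0.68 to −0.25 and Grm4 from −0.53 to −0.17, both smallest without saline male 2. Saline male 3 stood apart in base composition as well. A GC contrast was computed for each library as the median deviation of GC-rich genes (transcript GC of 54.0% or more) minus that of GC-poor genes (44.4% or less), and it was −0.94 on the log2 scale in saline male 3 and 0.71 and 0.90 in saline males 1 and 2, against −0.52 to 0.48 in the other 9 libraries.

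**Figure D3:**
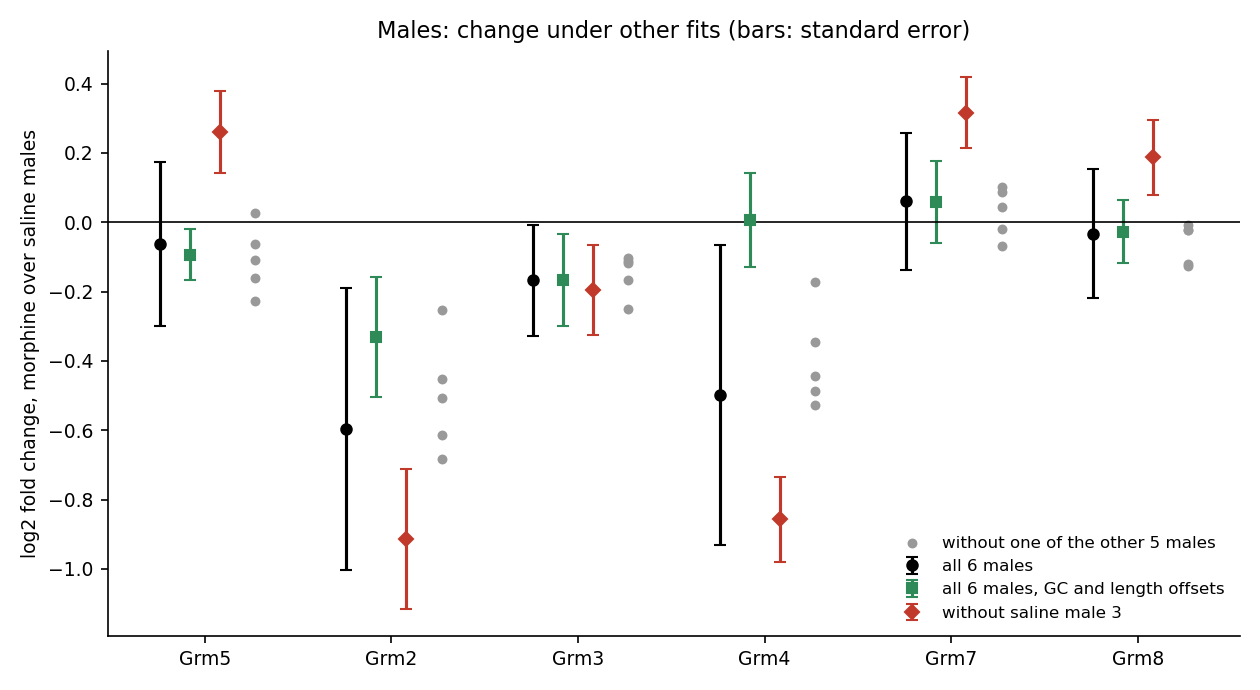
Log2 fold change of each gene in morphine over saline males, with SE bars. Fits are from all 6 males (black), from all 6 males with offsets for GC content and transcript length (green), and without saline male 3 (red). Gray points, with no bars, are the fits without each of the other 5 males. Grm2 and Grm4 move from −0.6 and −0.5 to −0.91 and −0.86 without saline male 3, and to −0.33 and 0.01 with the offsets.

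Offsets to remove the dependence on GC content and length of the longest transcript in each library were added after the data were seen. With these offsets, Grm4 in males was at 0.01 ± 0.14 and Grm2 at −0.33 ± 0.17 (SE, unadjusted p = 0.0956, edgeR quasi-likelihood test). In that fit 0 members passed, beside 1176 of 18166 genes. The SE of Grm4 fell from 0.43 to 0.14 and that of Grm5 from 0.24 to 0.07. Levels of cell type markers differed among the saline males and between the treatments in males, but markers of the same list did not all run the same way. Aldoc was at 1618, 1619, and 712 CPM in saline males 1, 2, and 3, whereas Aqp4, also an astrocyte marker, was at 685, 757, and 1097 CPM. Of the precursor markers, Olig1 was at 272, 316, and 109 CPM in these mice and Pdgfra at 109, 114, and 129 CPM. Whether the sums below follow cell numbers was not tested. Summed levels of the 5 oligodendrocyte precursor markers (Pdgfra, Cspg4, Olig1, Olig2, and Gpr17), all of them detected, were 963 and 1120 CPM in saline males 1 and 2, 621 CPM in saline male 3, and 737 to 784 CPM in morphine males. Olig2 of this list, Gjb6 of the 8 astrocyte markers, and the myelin gene Mobp were DE and lower in morphine males. The astrocyte list, all 8 of it detected, summed to 4654 and 4803 CPM in saline males 1 and 2, 3806 CPM in saline male 3, and 3522 to 3958 CPM in morphine males. Of the 4 choroid plexus markers (Ttr, Folr1, Kcnj13, and Clic6), all of them detected, Folr1 and Clic6 were DE and higher in morphine males, with sums of 249.7 to 509 CPM in saline and 399.7 to 803 CPM in morphine males. The 6 cerebellar granule cell markers (Gabra6, Fat2, Cbln3, Neurod1, Zic1, and Etv1) summed to 132 to 190.0 CPM in saline males and 152 to 240 CPM in morphine males, all 6 were detected, and 3 of them, Gabra6, Fat2, and Cbln3, were DE and higher in morphine males. Of the 4 unipolar brush cell markers, which label a cell type of the cerebellum and cochlear nucleus, Eomes and Lmx1a were also DE and higher in morphine males, while the summed level of the list was 162 to 220 CPM in saline and 151 to 187 CPM in morphine males. Without the library labelled morphine male 6, Olig2 and Gjb6 were no longer DE, whereas all 4 choroid plexus markers and Neurod1 were. Under the GC and length offsets, the median log2 fold change of the precursor list in males was −0.045, beside −0.319 in the main fit. There Olig1 was DE and Olig2 was not, while Gjb6, Mobp, and all 4 choroid plexus markers were DE. Gabra6, Fat2, Cbln3, Eomes, and Lmx1a also remained DE. The part of these cell types in the Grm2 and Grm4 levels was not tested.

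The treatment by sex interaction asked whether the change with morphine differed between males and females. It was at −0.92 ± 0.48 (SE) for Grm2 (unadjusted p = 0.0809, adjusted p = 0.985, edgeR quasi-likelihood test) and at −0.59 ± 0.50 for Grm4, and from −0.04 to 0.19 for the other 4 members. Thus 0 of 6 members passed, beside 2.94% of the 19027 genes tested, and a sex difference in the change of a member was not shown. Without saline male 3, Grm2 (−1.29 ± 0.29), Grm4 (−1.0 ± 0.23), and Grm7 (0.39 ± 0.14) passed the thresholds, as did 24.1% of all genes. Grm2 and Grm4 then also had adjusted p values of 0.0183 and 0.0177 (edgeR quasi-likelihood test), as did 9.22% of all genes with an adjusted p under 0.05. With the GC and length offsets the interaction was −0.57 ± 0.25 for Grm2 (unadjusted p = 0.039, adjusted p = 0.784), which passed the thresholds, and 0.08 ± 0.19 for Grm4. More genes passed in that fit, 1032 of 19027, than the 559 of the main fit. Without the library labelled morphine male 6, Grm2 was at −1.0 ± 0.53 and did not pass, and without saline male 2 it was at −0.57 ± 0.46.

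**Figure D4:**
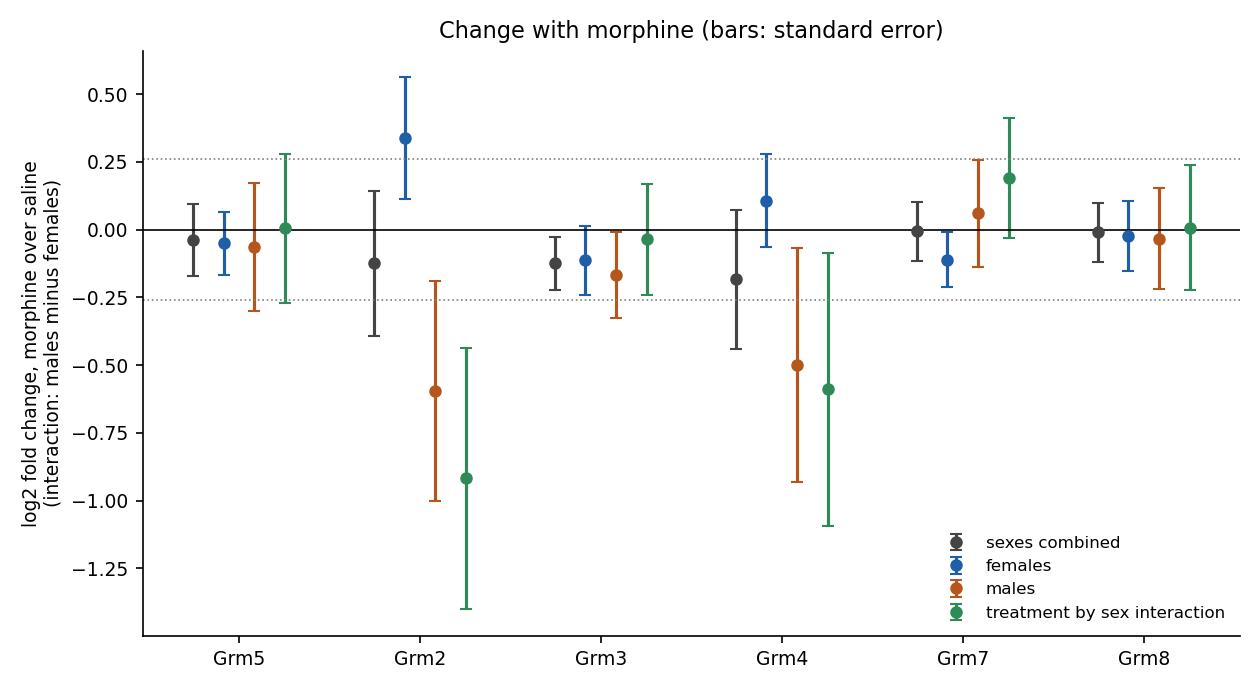
Log2 fold change of each gene with morphine in the sex-combined, female, and male fits, and the treatment by sex interaction (males minus females), with SE bars. Dotted lines mark the fold change threshold of 0.26 in either direction. The male and interaction values of Grm2 and Grm4 lie below it with the widest bars, and none passed at an unadjusted p under 0.05.

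Between saline males and saline females, Grm2 was higher in males by 1.03 ± 0.42 (SE) on the log2 scale (unadjusted p = 0.0421, adjusted p = 0.987, edgeR quasi-likelihood test). It was the only member past the thresholds in this comparison, and higher than every saline female in 2 of 3 saline males. Among all genes, 2.47% of 18122 passed, and 0.0331%, which were 6 genes, had an adjusted p under 0.05. Grm4 was at 0.94 ± 0.45 (unadjusted p = 0.0719) and the other 4 members ran from −0.2 to 0.07. The Grm2 call was lost when any mouse other than saline male 3 was left out, with values from 0.64 to 1.15 and unadjusted p values from 0.0629 to 0.177. Without saline male 3 it was 1.38 ± 0.23, Grm4 was 1.33 ± 0.18, Grm5 was −0.33 ± 0.12, and Grm7 was −0.43 ± 0.12, and these 4 members passed the thresholds, as did 37.3% of all genes. Of them Grm2, Grm4, and Grm7 had an adjusted p under 0.05, at 0.00264, 0.00104, and 0.0295 (edgeR quasi-likelihood test), beside 24.6% of all genes. With the GC and length offsets Grm2 was higher by 0.51 ± 0.20 (unadjusted p = 0.0304, adjusted p = 0.98) and Grm4 by 0.1 ± 0.11. Grm2 passed the thresholds in that fit, as did 585 of 18122 genes. The male, interaction, and saline sex comparisons share the saline males.

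Across the 12 mice the members fell into a pair that rose together, Grm2 and Grm4, and a pair that fell where they rose, Grm5 and Grm7. Log2 levels of Grm2 and Grm4 were correlated (Pearson's r = 0.944, permutation p = 4e-05, adjusted p = 0.0006; Spearman's rho = 0.818, adjusted p = 0.00735), with p values adjusted over the 15 pairs of members. Without the 2 mice farthest from the median, saline males 1 and 2, r was 0.802 (adjusted permutation p = 0.0202), and after the group means were subtracted it was 0.947. Within the 6 saline mice r was 0.982, and within the 6 morphine mice it was 0.431 (exact permutation p = 0.371). Grm2 ran against Grm7 (r = −0.892, rho = −0.846, adjusted permutation p = 0.00165 and 0.00705) and against Grm5 (r = −0.838, rho = −0.832, adjusted permutation p = 0.00189 and 0.00705). Grm4 ran against Grm7 (r = −0.869, rho = −0.727, adjusted permutation p = 0.00189 and 0.0292) and Grm5 (r = −0.853, rho = −0.86, adjusted permutation p = 0.00165 and 0.00705). Grm5 and Grm7 had r = 0.755 and rho = 0.699 (adjusted permutation p = 0.0127 and 0.0368). The 2 farthest mice were not the same for every pair. Without saline males 1 and 2, Grm4 with Grm7 (r = −0.688, adjusted permutation p = 0.0875) no longer passed at the 10 mice left. Nor did Grm5 with Grm7 without saline males 2 and 3 (r = 0.595, adjusted permutation p = 0.139). After the group means were subtracted, these pairs stood at r = −0.833 and 0.788 (adjusted permutation p = 0.00948 and 0.01). Within the 6 morphine mice alone none of the 6 pairs among Grm2, Grm4, Grm5, and Grm7 passed. There r was −0.819 for Grm2 with Grm5, −0.539 for Grm2 with Grm7, −0.583 for Grm4 with Grm5, −0.337 for Grm4 with Grm7, and 0.528 for Grm5 with Grm7 (exact permutation p = 0.0583, 0.281, 0.169, 0.529, and 0.297). Over the 11 mice without the library labelled morphine male 6, these 6 pairs had r between −0.893 and 0.943, each with an adjusted permutation p of at most 0.0223, and the signs were those over 12 mice. The other 9 pairs, which all include Grm3 or Grm8, had r between −0.472 and 0.488 over the 12 mice, and the lowest of their adjusted permutation p values was 0.228. Of these, Grm3 with Grm7 had r = 0.867 within the 6 morphine mice (exact permutation p = 0.0111, not adjusted over the 15 pairs). Within the 6 saline mice its r was −0.592 (exact permutation p = 0.224). The rest of the 9 had exact permutation p values of at least 0.211 within the morphine mice.

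The GC contrast of the library ran with the same pairs. Its correlation with the log2 level, over 12 mice and adjusted over the 6 members, was 0.932 for Grm2 (rho = 0.972, adjusted permutation p = 6e-05 for both), 0.929 for Grm4 (rho = 0.811, adjusted permutation p = 6e-05 and 0.00322), −0.946 for Grm5 (rho = −0.881, adjusted permutation p = 6e-05 and 0.00078), and −0.901 for Grm7 (rho = −0.874, adjusted permutation p = 0.000105 and 0.00102). Without saline males 2 and 3, the mice with the most extreme contrasts, r was 0.937, 0.868, −0.873, and −0.873 for these 4 genes, with adjusted permutation p values of 0.0003, 0.0019, 0.00126, and 0.0019. Grm8, of which the transcript is the poorest in GC among the members, had r = −0.543 and rho = −0.266 (adjusted permutation p = 0.0821 and 0.406), and r fell to −0.102 without those mice. Grm3 had r = 0.269 and rho = 0.392 (adjusted permutation p = 0.4 and 0.252). Over the 11 mice without the library labelled morphine male 6, r was 0.95 for Grm2, 0.948 for Grm4, −0.942 for Grm5, and −0.904 for Grm7 (adjusted permutation p = 3e-05, 0.00018, 3e-05, and 0.00084). Within the morphine mice alone, Grm5 (r = −0.887, permutation p = 0.0111) and Grm2 (r = 0.788, permutation p = 0.0389) still followed the contrast, and Grm4 (r = 0.46, permutation p = 0.357) and Grm7 (r = −0.785, permutation p = 0.0778) did not pass. The morphine mice without morphine male 6 are 5, too few for a correlation here. Points in these relations share library composition and scaling, and Grm2, Grm4, Grm5, and Grm8 are themselves among the genes that define the contrast.

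**Figure D5:**
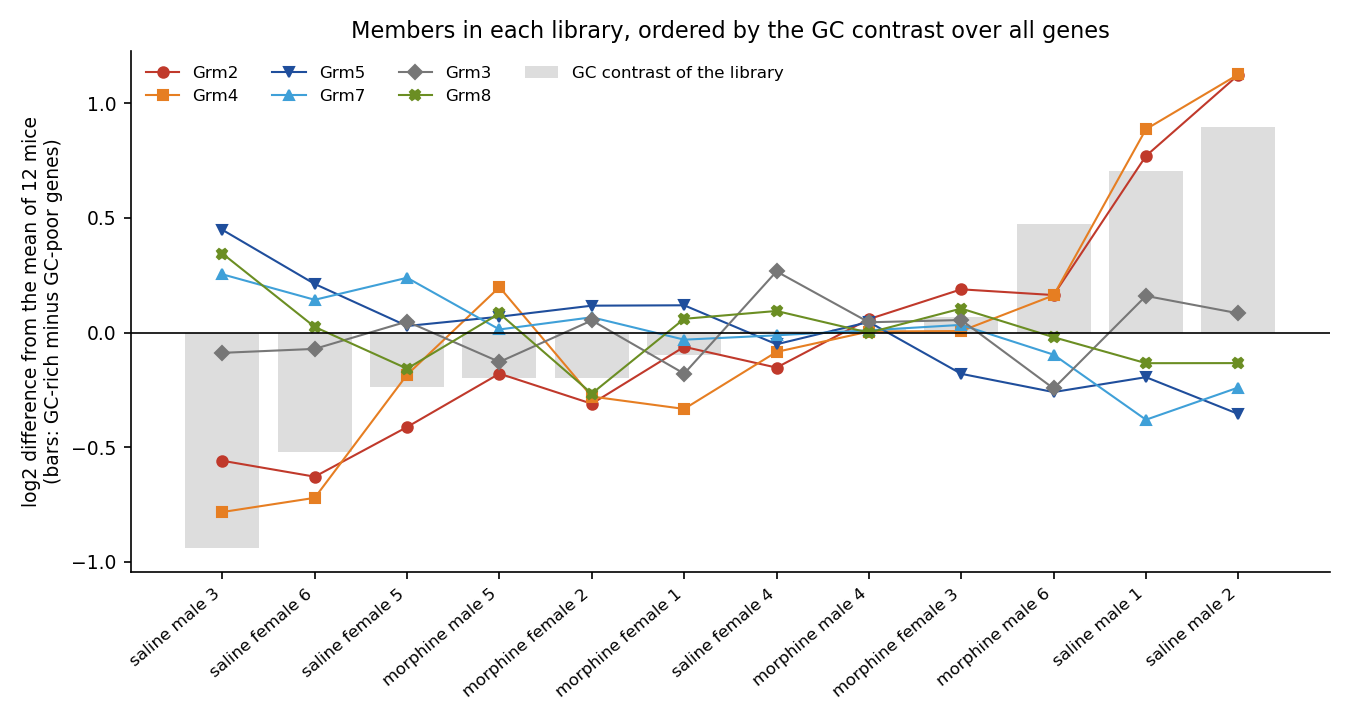
Log2 level of each gene minus its mean over the 12 mice, with libraries ordered by their GC contrast (gray bars, log2). Grm2 and Grm4 rise to saline males 1 and 2 at the right and Grm5 and Grm7 fall, while Grm3 and Grm8 show no steady course.

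Among 18601 other genes, those whose log2 levels over the 12 mice were most like each member are given by Pearson's r as a description. Dnpep (0.989) was closest to Grm2, Ercc2 (0.979) and Tfip11 (0.973) to Grm4, Ccdc50 (0.994) and Xiap (0.994) to Grm5, Cstf3 (0.978) and Gmcl1 (0.948) to Grm7, Lrrc4 (0.845) and Epb41l4aos (0.841) to Grm3, and C530005A16Rik (0.922) and Lrat (0.89) to Grm8. Transcript GC was 54.2% in Dnpep and 59.1% and 57.2% in those nearest Grm4. In those nearest Grm5 it was 40.8% and 36.8%, and in those nearest Grm7 it was 42.8% and 45.2%.

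Partners of the receptors were counted over 6 lists of 44 genes. Of them 0 were DE in the sex-combined fit, beside 1.19% of all genes, 0 in males, beside 2.99%, and 1 in females, beside 1.81%, and such small counts do not set the lists apart from other genes. When the library labelled morphine male 6 was left out, 0 of 44 were DE in the sex-combined fit and in males, and without saline male 3, 17 of 44 were DE in males (15 lower and 2 higher), beside 28.6% of all genes. The gene DE in females was Shank3, which encodes a postsynaptic scaffold protein that binds Homer (log2 fold change 0.32 ± 0.12, SE, unadjusted p = 0.024, adjusted p = 0.9998, edgeR quasi-likelihood test). By list, the sex-combined fit gave 0 DE genes among 7 of Gq coupling and phospholipase C (median log2 fold change −0.04), 0 of 11 group I scaffolds and partners (−0.04), 0 of 5 Gi/o subunits (−0.09), 0 of 8 group II and III partners (−0.03), 0 of 10 genes of glutamate uptake and recycling (−0.03), and 0 of 3 vesicular glutamate transporters (−0.02). Gnao1, the abundant brain Gi/o subunit, was at 0.00 ± 0.09 (SE), Slc1a2, the main astrocyte glutamate transporter, at −0.06 ± 0.10, and Slc17a6, the vesicular transporter of most brainstem glutamate neurons, at −0.06 ± 0.12. In males, the list of group I scaffolds and partners had a median of −0.14 with 9 of 11 genes below 0, beside −0.06 and 62.4% of all genes. In females it had a median of 0.12 with 11 of 11 genes above 0, beside −0.01 and 48.2% of all genes. Between saline males and saline females, which are the controls of those comparisons, its median was 0.31 with 10 of 11 genes higher in males, beside 0.02 and 52.9% of all genes. Under the GC and length offsets, the median of the list was −0.02 in males, with 6 of 11 genes below 0. In females it was then 0.09 with 10 of 11 genes above 0. Between saline males and saline females it was then 0.03 with 8 of 11 genes higher in males. For the interaction 0 of the 11 genes were DE, and a sex difference of the list was not tested. Ncdn, which encodes neurochondrin, a protein that binds Grm5, was at −0.73 ± 0.57 in males and 0.23 ± 0.17 in females, and its interaction was −0.94 ± 0.64 (unadjusted p = 0.169).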

How the data were processed

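Poly-A RNA-seq counts of 12 brainstem libraries were used, grouped by the treatment and sex labels. Per the labels, the authors used Trimmomatic for trimming, STAR for alignment to mm10, and featureCounts over Ensembl exons, and the deposited values are raw counts per gene (no columns were unused). Total counts were 27850565 to 48097947, and p values measure the spread between 3 or 6 mice. Symbols were matched to GENCODE M21 (all 55418 found, 55303 of them standing for 1 gene). GC content is that of the longest transcript, and levels per kb use the length of merged exons unless another length is named. Tests were the edgeR 4.0.16 quasi-likelihood test (R 4.3.3, TMM, filterByExpr) with Benjamini-Hochberg adjustment over all genes tested. Sex was a term where both sexes were fitted. The SE of a log2 fold change in these fits is its absolute value divided by the square root of the F statistic. The study names exactTest, which takes no covariate and was an alternative, as was DESeq2 1.42.0. Dam was not used, since no label gives it. Levels are CPM after TMM normalization over the 12 libraries, with a prior count of 2 for logs. Correlations used 100000 permutations (scipy 1.17.1). GC and length offsets were loess curves per library with a span of 0.5, on the GC content and the length of the longest transcript. The fits were tested on simulated data. Named genes are every member, Grm6, overlapping genes with at least 10 counts, the 2 genes most like each member, listed genes that were DE, and the highest of each list. Ncdn was named after its values were seen, and some genes that the rule names are not reported here. The members and lists were chosen with earlier results of these data known.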

Additional observations from a re-analysis of the deposited data

Results flagged for a closer look

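Of 12 groups of 6 mice tested, each member in the saline and in the morphine mice, 1 held a value far from the others. Grm8 in the morphine mice was lowest in morphine female 2, at 17.7 CPM, with the other 5 between 21.0 and 22.9 CPM. Chance flags about 1 in 20 such groups. Grm8 passed the thresholds in no comparison with or without this mouse.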

How the results depend on the processing

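In the sex-combined, female, and male fits, 0 members passed under every other tool, scaling, filter, and covariate tried (9, 8, and 8 settings), and of the fits that left out 1 mouse the only one to call members was that of males without saline male 3. The fits of 3 against 3 mice are small, and Grm2 rests on at most 307 counts per library. Reads of Grm7 and its antisense partner cannot be told apart over shared exons, which lie at the 5′ end of Grm7. Single members that lie near 0 changed sign often, in 25 values under other settings and in 45 when a mouse was left out, and none of these values had an unadjusted p under 0.05. Where no cause is named, the cause was not tested.

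Leaving out each mouse in turn gave 177 to 458 DE genes in the sex-combined fit, 208 to 1482 in females, 253 to 5341 in males, 290 to 4695 for the interaction, and 124 to 6966 between saline males and females, the highest always without saline male 3 except in females, where it came without saline female 4. Members called ran from 0 to 3 in males, 0 to 3 for the interaction, and 0 to 4 between saline males and females, again highest without saline male 3. Log2 fold changes that changed sign ran, in the sex-combined fit, from −0.27 to 0.083 for Grm2, −0.11 to 0.074 for Grm5, −0.071 to 0.063 for Grm7, and −0.061 to 0.056 for Grm8. In females they ran from −0.055 to 0.22 for Grm4, −0.11 to 0.044 for Grm5, and −0.094 to 0.085 for Grm8, and in males from −0.23 to 0.26 for Grm5, −0.067 to 0.32 for Grm7, and −0.13 to 0.19 for Grm8. For the interaction they ran from −0.15 to 0.03 for Grm3, −0.16 to 0.27 for Grm5, and −0.1 to 0.17 for Grm8, and between saline males and females from −0.11 to 0.075 for Grm3, −0.33 to 0.088 for Grm5, and −0.11 to 0.13 for Grm8.

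At an adjusted p under 0.05, 0 genes were called in the sex-combined fit, 0 in females, and 0 in males by the edgeR quasi-likelihood test. Without the filter on low counts, which tests more genes, 754, 1094, 985, 1665, and 2047 genes were DE in the sex-combined, female, male, interaction, and saline sex comparisons, with 1 member called for the interaction (Grm2) and 2 between saline males and females (Grm2 and Grm4). There Grm5 and Grm8 were at −0.008 and −0.0061 for the interaction and Grm3 at 0.011 between saline males and females. The fit of the 4 groups together called 218 genes in females. DESeq2 called 907 genes and 2 members (Grm2 and Grm4) between saline males and females, and gave −0.018 and −0.014 for the interaction of Grm5 and Grm8, with −0.018 and −0.015 when only its size factors were used. Scaling by total counts gave 0.011, 0.041, and 0.038 for Grm5, Grm7, and Grm8 in the sex-combined fit, 0.063 and 0.092 for Grm5 and Grm8 in males, 0.064 for the interaction of Grm3, and −0.0014 for Grm8 between saline males and females, where 0 members passed.

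The GC and length offsets, added after the data were seen, called 1176 of 18166 genes in males, and 1032 of 19027 genes and 1 member (Grm2) for the interaction. They gave 0.009 for Grm8 in the sex-combined fit, −0.071, 0.0302, and 0.044 for Grm4, Grm5, and Grm8 in females, 0.0065 for Grm4 in males, 0.078, −0.13, and −0.073 for the interaction of Grm4, Grm5, and Grm8, and 0.025 and 0.0495 for Grm3 and Grm5 between saline males and females.

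Replicate numbers are shared between treatments, but every shared number joins a male and a female, and same-numbered mice did not deviate together (r from −0.356 to 0.18 over 6 pairs, 0 of 6 closest to their own number). With the number as a replicate block, the sex-combined fit called 182 genes and 0 members, and Grm7 was at 0.0093. Per kb of the longest coding sequence, Grm3 minus Grm4 was −0.029 and Grm4 minus Grm8 −0.399, and per kb of the longest transcript Grm4 minus Grm8 was −0.33. Without the 2 mice farthest from the median, r was −0.057 for Grm2 and Grm3 and −0.688 for Grm4 and Grm7 (saline males 1 and 2 left out). It was −0.069 for Grm5 and Grm8 and 0.595 for Grm5 and Grm7 (saline males 2 and 3 left out). After the group means were subtracted, r was −0.654 for Grm4 and Grm8 (adjusted permutation p = 0.0455, which may be too small, as the permutations did not allow for the subtracted means). The correlations without the library labelled morphine male 6, added after the data were seen, changed no call among the 15 pairs.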
